A study of Mus musculus with 2 samples.

Results

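In a single-nucleus RNA-seq series of mouse liver in diet-induced MASH (metabolic dysfunction–associated steatohepatitis), 4874 of 9867 hepatocyte nuclei were low for both the pericentral and the periportal programme and are called low-both nuclei here. They were chosen on their own counts. A nucleus needed at least 300 detected genes, at least 3000 unique molecular identifiers (UMIs, which count captured transcripts) and at most 1 UMI summed over 8 genes of other cell types. Its pericentral sum (*Glul* and *Slc1a2*) and its periportal sum (*Sds*, *Hal*, *Etnppl*, *Gldc* and *Uroc1*) each had to stay under 0.1% of its UMIs. Nuclei at or over the cut for one sum only were taken as zone 3 (pericentral) or zone 1 (periportal) nuclei. Of all 20111 barcodes in the series, 4874 were low-both nuclei. The rule therefore fixes a range on a measured gradient and not a cell type, and the 7 zone genes it used are described without any test.

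The study asked what loss of the signalling protein *Themis* in hepatocytes does in MASH. Both libraries came from male C57BL6/J mice homozygous for a floxed *Themis* allele (*Themis* flox/flox), fed from 10–12 weeks of age for 5 months on a diet in which fat supplied 40% and fructose 20% of the calories and cholesterol made up 2%. The HKO mice also carried Alb-Cre, a Cre recombinase driven by the albumin promoter and hence active in hepatocytes, and the Flox mice did not, although the title of the Flox library calls it WT. Livers of several mice of each genotype were pooled, nuclei were sorted by flow cytometry, and 1 library per genotype was made with 10x 3′ v3 chemistry. There were thus no replicates, no difference was tested, and intervals in brackets are exact 95% intervals that cover counting error only.

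Liver lobules are zoned. Hepatocytes around the portal tracts carry out gluconeogenesis, urea synthesis and amino acid catabolism, those around the central vein take up ammonia into glutamine and express cytochrome P450 enzymes under Wnt signalling, and those between them (midlobular, zone 2) express both sets at intermediate levels together with genes such as *Hamp* and *Igfbp2*. In MASH this arrangement is overlaid by lipid accumulation, inflammation and hepatocyte injury.

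The library labelled Flox held 9363 barcodes with 58171337 UMIs and the library labelled HKO 10748 barcodes with 40475938 UMIs, and 27 barcodes occurred in both. The median low-both nucleus had 8221 UMIs (labelled Flox) or 6182 UMIs (labelled HKO). *Themis* itself (GRCm38 chr10:28668360-28883818) was higher, not lower, in the library labelled HKO in all 3 classes of nuclei. Which part of the gene is floxed is not given in the sources used here, so a 3′ count need not fall after recombination and does not check the label. Every direction between the libraries below is therefore one between the library labelled HKO and the library labelled Flox.

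The hepatocyte identity of the low-both nuclei was checked with *Alb* (albumin), *Apob* (the apolipoprotein of VLDL) and *Cps1* (the entry enzyme of the urea cycle). All 3 were detected in 2162 of 2662 low-both nuclei labelled Flox (81.2%) and in 1464 of 2212 labelled HKO (66.2%). Fewer than 2 of them were detected in 23 (0.864%) and 40 nuclei (1.81%). Detection alone separates weakly, since after thinning to 3000 UMIs *Alb* was found in 94.5% and 93.1% of low-both nuclei but also in 89.5% and 76.3% of endothelial nuclei, which do not make it. *Alb* stood at 1498 CPM (UMIs of a gene divided by all UMIs of its class, scaled up to a constant total) in the library labelled Flox and 1425 CPM in the library labelled HKO. *Apob* stood at 1930 and 1621 CPM. *Cps1*, which is periportal, stood at 456 and 542 CPM in low-both nuclei against 39.4 and 45.7 CPM in zone 3 nuclei. After thinning, *Apob* was found in 98.1% and 97.1% of low-both and in 81.4% and 79.1% of endothelial nuclei. *Cps1* was found in 60.9% and 56.8% of low-both and in 41.8% and 48.2% of endothelial nuclei. The markers thus match the name hepatocyte for most of these nuclei, though their detection alone separates them weakly from endothelial nuclei.

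A small number of low-both nuclei carried transcripts of other cells. Counting nuclei with fewer than 2 hepatocyte markers or with at least 10 UMIs of one marker list of another cell type, 36 low-both nuclei labelled Flox (1.35%) and 62 labelled HKO (2.80%) stood apart. Zone 1 had 4 and 11 such nuclei and zone 3 had 8 and 18. Immunoglobulin and other plasma cell markers summed to 115 and 346 CPM in low-both nuclei, and 3 nuclei in each library had at least 10 UMIs of them, with up to 1835 UMIs and 2299 UMIs in a single nucleus. Macrophage markers summed to 17.2 and 60.4 CPM, with 9 and 22 nuclei at or over 10 UMIs. Cholangiocyte markers summed to 16.9 and 35.2 CPM, endothelial markers to 28.8 and 39.6 CPM and stellate cell markers to 16.4 and 19.4 CPM. Several results that these nuclei touch are given with and without them.

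The low-both class held more hepatocyte nuclei than zone 1 or zone 3 in both libraries, though not at every depth: under 8000 UMIs, zone 1 had 1382 and low-both 1227 nuclei in the library labelled Flox. It held 2662 of 5797 hepatocyte nuclei of the library labelled Flox, a share of 45.9% (44.6–47.2), and 2212 of 4070 of the library labelled HKO, a share of 54.3% (52.8–55.9). Zone 1 held 36.3% and 30.02% and zone 3 held 17.6% and 15.6%, and 11 and 2 nuclei passed the cut for both programmes. The share in the library labelled HKO over that in the library labelled Flox was 1.18 (1.12–1.25) for low-both nuclei, 0.827 (0.770–0.888) for zone 1 and 0.886 (0.801–0.98) for zone 3. With a zone cut of 0.2% in place of 0.1% the low-both ratio was 1.01 (0.966–1.06).

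**Figure D1:**
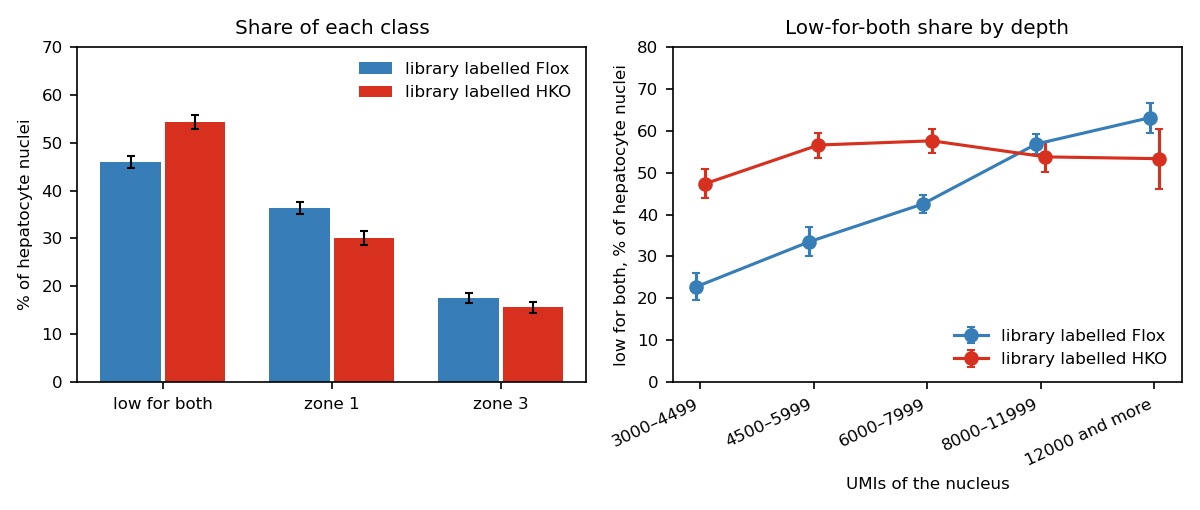
Left, share of hepatocyte nuclei (%) low for both programmes, in zone 1 and in zone 3 for each library. Right, the low-both share by the number of UMIs of the nucleus. Bars or points are shares and error lines exact 95% intervals for counting error. In the library labelled Flox the low-both share went from 22.7% in the shallowest nuclei to 63.1% in the deepest, and in the library labelled HKO it stayed between 47.3% and 57.6%.

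That ratio was not the same at every depth. Among nuclei under 8000 UMIs the low-both share was 36.6% (35–38.3) in the library labelled Flox and 54.5% (52.8–56.3) in the library labelled HKO, a ratio of 1.49 (1.38–1.60). From 8000 UMIs it was 58.6% (56.6–60.6) and 53.7% (50.4–56.9), and the ratio, 0.916 (0.825–1.01), lay on the other side of 1 with an interval that includes 1. In nuclei of 3000 to 4500 UMIs, where the cut is passed by a handful of molecules, 22.7% of the library labelled Flox and 47.3% of the library labelled HKO were low for both. Depth moved with the class and differed between the libraries, and its part in the share difference was not tested.

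Most low-both nuclei were not empty of zone transcripts. The pericentral sum was 0 in 1654 (62.1%) and 1467 nuclei (66.3%) of the libraries labelled Flox and HKO, and the periportal sum was 0 in 569 (21.4%) and 545 (24.6%). Both were 0 in 286 (10.7%) and 306 (13.8%). Just inside the cut, 809 (30.4%) and 696 (31.5%) low-both nuclei had a periportal sum between 0.05% and 0.1% of their UMIs, and 118 and 91 had a pericentral sum in that range. Just outside it, 657 zone 1 nuclei labelled Flox (31.2%) and 351 labelled HKO (28.7%) had a periportal sum between 0.1% and 0.15%, and 74 and 45 zone 3 nuclei had such a pericentral sum. The periportal border thus ran through a dense part of the range and the pericentral border through a sparse one.

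For zonated genes that the rule did not use, the low-both nuclei lay between the zones by their median. Low-both is the class left under both cuts, so a median between the zones is partly set by the cuts. A zone index was formed for each nucleus as the log2 ratio of periportal to pericentral UMIs (each plus 1), over listed genes outside the rule and after thinning each nucleus to 3000 UMIs. Its median was 2.32 in zone 1, −0.21 in low-both and −2.32 in zone 3 nuclei of the library labelled Flox. In the library labelled HKO the medians were 1.95, 0.25 and −1.82. Low-both nuclei did not form one position. Of those labelled Flox, 869 (32.6%) lay within the central 90% of zone 1 nuclei, 983 (36.9%) within that of zone 3 nuclei and 794 (29.8%) between the ranges. Of those labelled HKO, 1115 (50.4%), 666 (30.1%) and 405 (18.3%) did, so that the low-both nuclei of this library lay more to the periportal side.

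**Figure D2:**
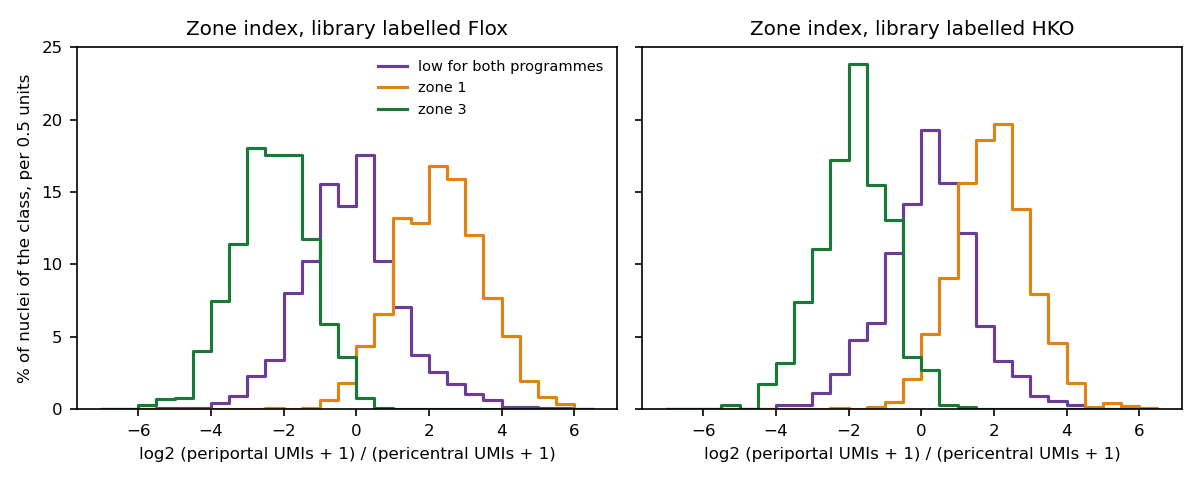
Distribution of the zone index, log2 of (periportal UMIs + 1) over (pericentral UMIs + 1) after thinning to 3000 UMIs, as the percentage of nuclei of each class per 0.5 units, for zone 1, low-both and zone 3 nuclei of each library. Low-both nuclei spread between the zones, with medians of −0.21 and 0.25, and overlap both.

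Genes picked by their difference between the zone classes had the same placement. Of 11258 genes with at least 200 UMIs in hepatocyte nuclei, 255 were at least 2-fold higher in zone 1 than in zone 3 in both libraries and 284 at least 2-fold higher in zone 3. Low-both nuclei lay between the zones for 245 (96.1%) and 241 (94.5%) of the zone 1 genes and for 276 (97.2%) and 268 (94.4%) of the zone 3 genes. The genes were picked from these same libraries, and low-both is the class left under both cuts. These shares are thus partly set by how genes and classes were chosen, and nothing is read from them. On a scale on which zone 1 is 0 and zone 3 is 1, the median position was 0.47 and 0.39 for zone 1 genes and 0.58 and 0.53 for zone 3 genes. Over all genes, the median log2 ratio of low-both over zone 1 nuclei (CPM plus 1) was −0.02 and 0.03, and over zone 3 nuclei 0.01 and 0.03.

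Pericentral genes were higher in low-both than in zone 1 nuclei and lower than in zone 3 nuclei. Of 29 pericentral genes outside the rule, 28 were higher than in zone 1 in both libraries, and 27 lay between the zones. At least 2-fold higher than in zone 1 in both libraries were 15 of 29, where 1.16% of all genes were, and at least 2-fold lower than in zone 3 were 17 of 29, where 0.835% of all genes were. These shares follow from how the classes were cut and nothing is read from them. The median log2 ratio was 1.61 and 1.12 over zone 1 and −1.62 and −1.36 over zone 3, in the libraries labelled Flox and HKO.

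The pericentral genes did not all sit at the same height. *Cyp2e1* (chr7:140763739-140774987), which oxidises ethanol and other small molecules, stood at 253 CPM in zone 1, 1527 CPM in low-both and 2092 CPM in zone 3 nuclei of the library labelled Flox. In the library labelled HKO it stood at 315, 922 and 1308 CPM. Low-both nuclei were thus at 0.730 (0.716–0.744) and 0.704 (0.682–0.728) of the zone 3 level. *Slco1b2*, an uptake transporter for bile acids and drugs, stood at 956, 2261 and 3710 CPM and at 1595, 2749 and 4375 CPM. *Cyp7a1*, the rate-limiting enzyme of bile acid synthesis, stood at 367, 554 and 1158 CPM and at 891, 1081 and 1821 CPM. For these genes the low-both level lay well inside the range set by the zones.

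Other pericentral genes stood far below their zone 3 level. *Oat*, which makes glutamate from ornithine, stood at 8.94, 46.9 and 456.5 CPM in zone 1, low-both and zone 3 nuclei labelled Flox. In nuclei labelled HKO it stood at 5.33, 31.4 and 387 CPM, so that the low-both level was 0.103 (0.0959–0.110) and 0.0811 (0.0729–0.0901) of the zone 3 level. *Lgr5*, an R-spondin receptor that amplifies Wnt signals, stood at 0.559, 27.7 and 169 CPM and at 1.54, 30.1 and 152 CPM. *Lgr5* was also the named gene with the highest ratio over zone 1, at 49.6 (26.0–109) and 19.6 (11.3–37.0), so that it was far from both zones. Among the genes with the greatest shortfall against zone 3 were the Wnt inhibitor *Nkd1* (0.421 against 18.0 CPM, and 0 against 20.7 CPM) and the ammonium transporter *Rhbg* (0.967 against 24.3 CPM, and 1.01 against 21.3 CPM). The cation transporter *Slc22a3* stood at 5.21 against 56.5 CPM and at 4.18 against 51.1 CPM. The transcription factor *Tbx3* held a place between, with 8.1, 126 and 466 CPM and 14.0, 168 and 584 CPM.

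Periportal genes were the mirror image. Of 25 outside the rule, 23 were lower than in zone 1 and 22 higher than in zone 3 in both libraries, and 21 lay between the zones. At least 2-fold lower than in zone 1 were 9 of 25 (0.64% of all genes), and at least 2-fold higher than in zone 3 were 11 of 25 (1.16% of all genes). These shares, too, follow from how the classes were cut, and nothing is read from them. The median log2 ratio was −0.88 and −0.96 over zone 1 and 1.04 and 1.17 over zone 3. One member, the apolipoprotein gene *Apoa4*, was above both zones in both libraries.

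The periportal genes, too, differed in how far they lay below zone 1. *Arg1*, arginase of the urea cycle, stood at 956, 557 and 32.7 CPM in zone 1, low-both and zone 3 nuclei labelled Flox and at 1363, 700 and 32.7 CPM in those labelled HKO. *Ass1*, argininosuccinate synthase of the same cycle, stood at 311, 155 and 28.6 CPM and at 379, 125 and 23.4 CPM. *Pck1*, the gatekeeper of gluconeogenesis, stood at 3969, 2154 and 1225 CPM and at 4797, 2846 and 1263 CPM. *Cyp2f2* (chr7:27119909-27133660), a cytochrome P450 of the outermost periportal hepatocytes, was further down, at 328, 58.3 and 10.8 CPM and at 222, 34.4 and 3.46 CPM. Low-both nuclei held 0.178 (0.168–0.189) and 0.155 (0.140–0.171) of its zone 1 level. *Gls2*, liver glutaminase, stood at 207, 40.8 and 4.46 CPM and at 186, 38.7 and 3.46 CPM, and *Cryl1* at 48.3, 5.17 and 0.719 CPM and at 65.5, 6.82 and 0.266 CPM.

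Of the midlobular genes, 2 of 3 measured stood above both zones. *Igfbp2* (chr1:72824503-72852474), an IGF-binding protein, stood at 58.5 CPM in zone 1, 84.2 CPM in low-both and 16.1 CPM in zone 3 nuclei labelled Flox, and at 47.9, 61.5 and 14.4 CPM in those labelled HKO. Its low-both level was 1.44 (1.33–1.56) and 1.28 (1.14–1.45) of that in zone 1. *Cyp8b1*, which makes cholic acid, stood at 57.1, 68.9 and 50.9 CPM and at 26.2, 32.3 and 19.7 CPM, or 1.21 (1.11–1.31) and 1.24 (1.05–1.46) of the zone 1 level. *Hamp* (chr7:30942368-30944032), the iron hormone hepcidin, did not: it stood at 997, 440 and 67.0 CPM and at 620, 226.5 and 54.0 CPM, between the zones.

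When the nuclei that were not zone 3 were ordered by their periportal sum, the low-both nuclei made up the 3 lowest steps. The rule used that sum, so trends of zonated genes across the steps are partly set by the ordering. The steps were a sum of 0 (569 and 545 nuclei), a sum above 0 and under 0.05% (1284 and 971) and a sum of 0.05% to 0.1% (809 and 696). *Cyp2e1* in these steps was 1871, 1713 and 1024 CPM in the library labelled Flox and 1051, 975 and 760.5 CPM in the library labelled HKO. *Cyp2f2* ran the other way, with 12.7, 22.1 and 144 CPM and 8.56, 21.0 and 70.2 CPM. *Hamp* was 172, 320 and 792 CPM and 113, 189 and 353 CPM. *Igfbp2* had its highest step inside the low-both range in both libraries, with 65.2, 92.6 and 81.7 CPM and 44.4, 55.4 and 81.4 CPM, against 16.1 and 14.4 CPM in zone 3, 59.9 and 65.3 CPM at a periportal sum of 0.1% to 0.2% and 56.2 and 32.4 CPM in nuclei with a periportal sum of 0.2% and more.

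**Figure D3:**
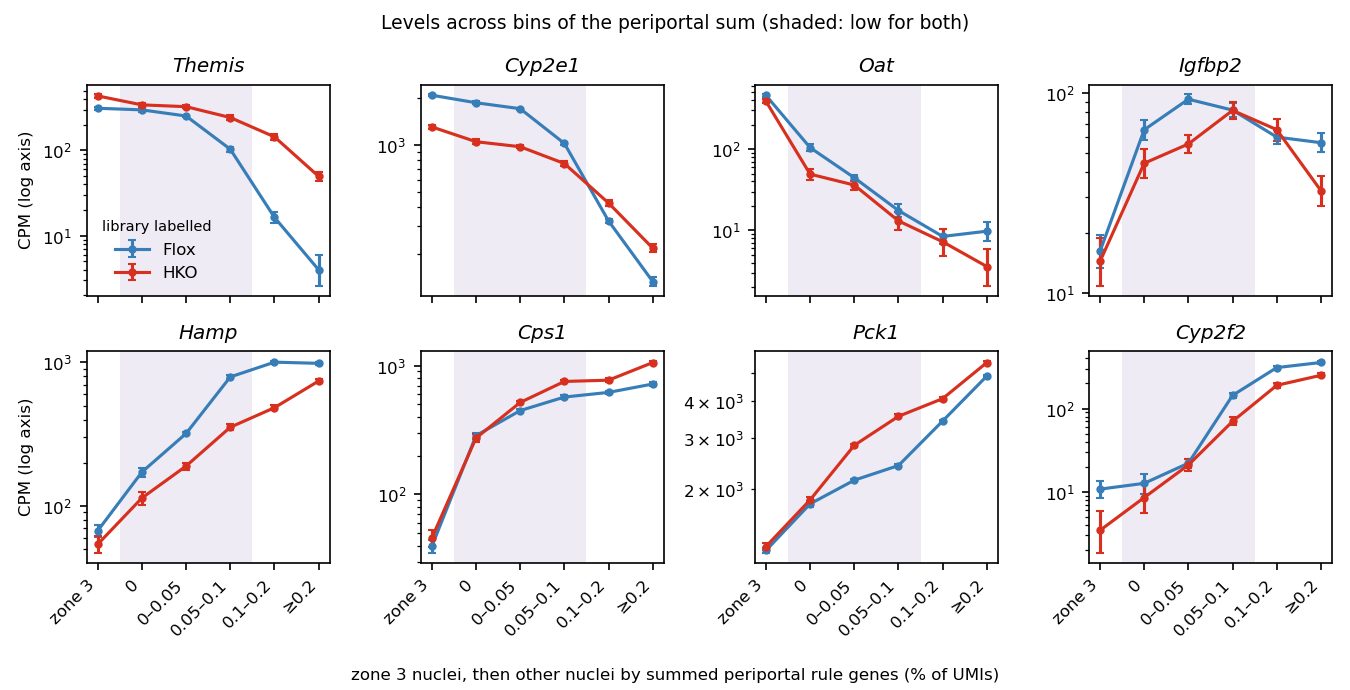
CPM (log axis) of zonated genes and *Themis* in zone 3 nuclei and in the other nuclei by their periportal sum (% of UMIs), for each library, with exact 95% intervals for counting error. The shaded steps are low-both nuclei, cut on the periportal sum that the rule used. Pericentral genes and *Themis* go down and periportal genes up across them, and *Igfbp2* has its highest step within them.

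*Themis* followed the pericentral genes. It encodes an adaptor best known from T cell receptor signalling in thymocytes, and it was not part of the rule. In the library labelled Flox it stood at 11.7 CPM in zone 1, 214 CPM in low-both and 311 CPM in zone 3 nuclei, and in the library labelled HKO at 94.1, 301 and 434 CPM. The low-both level was 18.3 (15.8–21.2) and 3.2 (2.97–3.46) times the zone 1 level and 0.688 (0.654–0.724) and 0.694 (0.656–0.735) of the zone 3 level. Across the low-both steps above, it was 298, 252 and 103 CPM in the library labelled Flox and 341, 325 and 242 CPM in the library labelled HKO. In zone 1 nuclei the level in the library labelled HKO was 8.02 (6.84–9.45) times that in the library labelled Flox, and in low-both nuclei 1.41 (1.35–1.47) times. T and NK cell markers other than *Themis* summed to 1.26 and 2.43 CPM in low-both nuclei.

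How often transcripts of both zones were found in the same low-both nuclei depended on the pair of genes. After thinning to 3000 UMIs, *Cps1* and *Cyp2e1* were detected together in 53.6% (51.7–55.5) of low-both nuclei labelled Flox and 47.1% (45–49.2) of those labelled HKO. The share was 29.3% and 36.1% in zone 1 and 8.24% and 6.47% in zone 3. Endothelial nuclei, which should lack both transcripts and show what free RNA contributes, had them together in 28.6% (63 of 220) and 29.5% (41 of 139), at median depths of 8993 and 7303 UMIs. Without thinning, the shares in low-both nuclei were 76.6% and 60.4%, and in endothelial nuclei 55.9% and 48.2%. *Themis* alone was detected in 39.9% and 50.3% of thinned low-both nuclei (64.3% and 68.4% unthinned), against 22.3% and 28.8% of endothelial nuclei (38.2% and 46.8% unthinned). For *Cps1* with *Cyp2e1* and for *Themis* alone, the low-both shares were above this background in both libraries. After thinning, *Cyp2f2* and *Cyp2e1* were together in 8.49% and 4.25% of low-both, but 20.3% and 15.7% of zone 1 nuclei. Their endothelial shares were 11.8% (7.87–16.8) and 6.47% (3.003–11.94), so this pair was not above background. *Pck1* and *Themis* were together in 33.5% and 46.2% of low-both and 15.5% and 23.02% of endothelial nuclei. Zone 3 nuclei were near the low-both level, at 34.7% and 44.95%.

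Few genes set the low-both nuclei apart from both zones. Compared with zone 1 and with zone 3 in both libraries, 1035 of 11258 genes were higher in all 4 ratios and 713 lower. Only 25 and 2 were so by more than 0.5 on the log2 scale of CPM plus 1 in every ratio, and 4 and 0 by at least 2-fold. The 4 ratios share the same low-both nuclei and are not independent. Of the 25 genes, 7 passed the minimum of 200 UMIs only through the low-both nuclei, *Ccl2* and *Rgma* among them, and had to be higher there, so the count of 25 against 2 is partly set by that minimum. The 4 genes were *Ccl2* (a monocyte chemoattractant), *Rgma* (a BMP co-receptor) and the immunoglobulin genes *Igha* and *Igkc*.

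The other-cell nuclei carried much of this set. Without them, 9 of the 25 genes remained beyond 0.5 on the log2 scale in every ratio and 12 kept the direction in all 4. *Igha* went from 38.2 to 2.12 CPM in low-both nuclei labelled Flox and from 125 to 6.43 CPM in those labelled HKO, and *Igkc* from 57.9 to 6.20 CPM and from 176 to 7.26 CPM. *Ccl2* stood at 0.372 CPM in zone 1, 3.24 CPM in low-both and 0 CPM in zone 3 nuclei labelled Flox, where the low-both level was at least 7.50-fold higher than zone 3 by the floor of 3 UMIs over the class. In nuclei labelled HKO it stood at 0.947, 8.64 and 1.06 CPM. Without the other-cell nuclei *Ccl2* was 1.53 and 6.71 CPM in low-both nuclei, still above both zones.

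*Rgma* (chr7:73375509-73419899) did not depend on those nuclei. It stood at 0.558 CPM in zone 1, 6.06 CPM in low-both and 0.863 CPM in zone 3 nuclei labelled Flox, and at 1.89, 6.01 and 0.798 CPM in those labelled HKO. Without other-cell nuclei it was 6.03 and 6.02 CPM in low-both nuclei, and the weakest of the 4 log2 ratios was 1.33. *Haus8*, a spindle gene of the augmin complex, stood at 13.0, 21.6 and 9.64 CPM and at 33.0, 70.3 and 33.8 CPM. *Rassf4*, a Ras-association domain gene, stood at 14.1, 42.9 and 24.2 CPM and at 16.1, 48.8 and 32.4 CPM. Below both zones were *Slc10a2*, the apical bile acid transporter, with 40.7, 27.4 and 52.7 CPM and 70.5, 39.1 and 58.5 CPM, and *Pde6c*, with 2.14 and 2.03 CPM in low-both nuclei.

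Among groups of hepatocyte function, genes of the lipid droplet stood higher in low-both than in zone 1 nuclei. Of 15 measured, 12 were higher than in zone 1 in both libraries and 3 at least 2-fold (1.16% of all genes), with median log2 ratios of 0.69 and 0.50 over zone 1 and 0.09 and −0.08 over zone 3. *Cidec*, which fuses lipid droplets, stood at 13.7, 87.8 and 71.4 CPM and at 31.0, 77.1 and 57.4 CPM in zone 1, low-both and zone 3 nuclei. *Plin4*, a droplet coat protein, stood at 30.8, 241 and 226 CPM and at 157, 247 and 216 CPM. *Fabp4*, a fatty acid carrier also made by macrophages and endothelium, stood at 5.09 against 2.01 CPM in zone 3 nuclei labelled Flox and at 16.1 against 15.2 CPM in those labelled HKO. Without the other-cell nuclei it stood at 5.09 CPM in low-both against 2.03 CPM in zone 3 nuclei labelled Flox and at 15.2 CPM in both classes labelled HKO. By their median the droplet genes of low-both nuclei thus stood near the zone 3 level. Of the 15, 4 were higher and 3 lower than in zone 3 in both libraries. Of the lower ones 1 was at least 2-fold lower (0.835% of all genes), at log2 ratios of −3.69 and −2.47.

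Lists of hepatocyte transcription factors and of fatty acid oxidation had medians near 0, with members on both sides. Of 24 transcription factors, 7 were higher and 9 lower than in zone 1 in both libraries, and the median log2 ratio lay between −0.06 and 0.00 in all 4 ratios. *Nr1i3*, the xenobiotic receptor CAR, stood at 1081, 2482 and 3219 CPM in zone 1, low-both and zone 3 nuclei labelled Flox and at 1194, 1797 and 2594 CPM in those labelled HKO. *Esr1*, the estrogen receptor, stood at 98.4, 36.7 and 16.1 CPM and at 99.7, 46.6 and 33.0 CPM. These 2 factors were thus graded like zonated genes. *Ppara*, the fatty acid-sensing nuclear receptor, stood at 559, 611 and 559 CPM and at 472, 522 and 479 CPM, and *Hnf4a*, the master regulator of hepatocyte genes, at 153, 109 and 113 CPM and at 149, 115 and 117 CPM. For 25 fatty acid oxidation genes, none of them 2-fold apart in any of the 4 ratios, the medians were 0.07 and 0.06 over zone 1 and 0.04 and 0.00 over zone 3. Secreted plasma proteins were lower than in zone 1 in both libraries for 25 of 36, with medians of −0.46 and −0.16 over zone 1 and 0.12 and 0.07 over zone 3.

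The study described disease-associated hepatocytes by *Nrg1* (neuregulin 1), *Anxa2*, *Gdf15*, *Sox4*, *Klf6* and *Jun*, a list it drew up from its own liver data, so that it is not independent evidence here. Of the 5 measured, the median log2 ratio was 0.65 and 0.96 over zone 1 and 0.31 and 0.24 over zone 3. *Gdf15*, a stress cytokine, stood at 83.0, 123 and 99.6 CPM and at 52.2, 103 and 86.7 CPM in zone 1, low-both and zone 3 nuclei. *Jun*, an AP-1 factor, stood at 45.7, 95.6 and 73.1 CPM and at 75.7, 126 and 117 CPM. These 2 of the 5 were above both zones in both libraries. *Nrg1* was below zone 1 in the library labelled Flox, with 14.2 against 19.1 CPM, and above it in the library labelled HKO, with 104 against 63.6 CPM. Against zone 3, with 4.03 and 28.2 CPM, *Nrg1* was higher in both libraries. *Anxa2* was below zone 3, with 6.60 against 11.1 CPM and 14.6 against 15.4 CPM. It was above zone 1, without other-cell nuclei at 5.52 against 0.746 CPM and 13.7 against 3.47 CPM. *Klf6* was level with zone 3 in the library labelled Flox, with 41.8 against 41.9 CPM. In the library labelled HKO, thinned nuclei with *Klf6* were 22.6% of low-both and 14.7% of zone 3 nuclei. *Cdkn1a*, the cell cycle inhibitor p21, stood at 8.19, 14.6 and 8.92 CPM and at 34.8, 43.8 and 29.0 CPM. It too was highest in low-both nuclei, at 1.79 (1.46–2.20) and 1.26 (1.09–1.45) times the zone 1 level.

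Between the libraries, the low-both nuclei differed in sex-biased, disease-associated, midlobular, senescence, acute-phase and lipogenic genes. These differences were not particular to them. In zone 1 and zone 3 nuclei the median log2 ratio was 0.74 and 0.67 for disease-associated and −0.69 and −0.31 for midlobular genes. It was −1.21 and −0.53 for acute-phase and 0.30 and 0.71 for lipogenic genes. Of 10193 genes with at least 200 UMIs in low-both nuclei, 212 (2.08%) were at least 2-fold higher in the library labelled HKO and 201 (1.97%) at least 2-fold lower, with a median log2 ratio of 0.00 over all genes. One library of pooled mice stands for each genotype, so a difference between genotypes and one between these pools cannot be told apart. *Themis*, above, was higher in the library labelled HKO, and its 3′ count does not check that label.

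**Figure D4:**
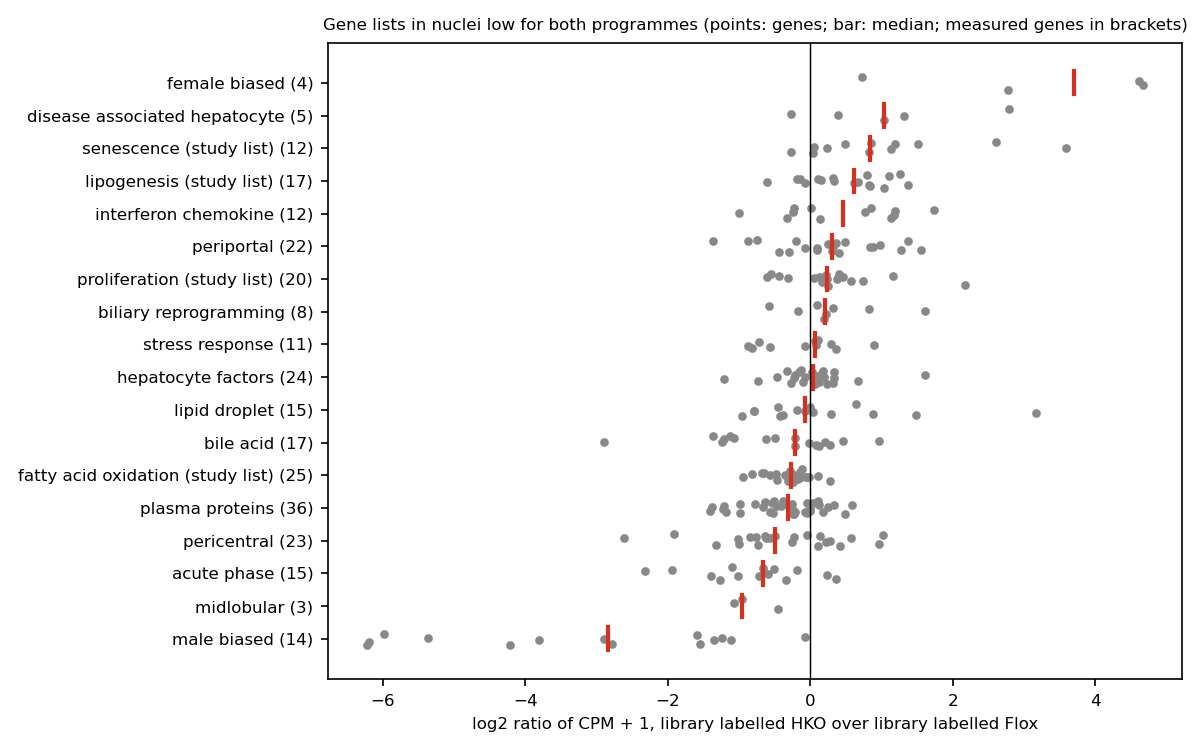
Log2 ratio of CPM plus 1 in the library labelled HKO over the library labelled Flox, by gene list (number of measured genes in brackets), in low-both nuclei. Points are genes and bars are list medians. The line at 0 marks equal levels. Male-biased genes lie to its left and female-biased genes to its right, where some of both passed the UMI minimum through 1 library only.

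Male-biased genes were lower and female-biased genes higher in the library labelled HKO, although both libraries came from male mice. Of 14 male-biased genes measured, 5 passed the minimum of 200 UMIs only through the library labelled Flox and had to be lower. The other 9 were lower in low-both nuclei as well, 8 of them at least 2-fold (1.97% of all genes). Of the 14, 13 were at least 2-fold lower in zone 1 nuclei (2.01% of all genes) and 13 in zone 3 nuclei (2.33%). *Mup11*, a major urinary protein, stood at 629 CPM in the library labelled Flox and 7.42 CPM in the library labelled HKO. *Selenbp2* stood at 587 and 30.8 CPM, and *Slco1a1*, an organic anion transporter, at 365 and 48.3 CPM. *Mup20* was the exception with 1348 and 1281 CPM, a ratio of 0.95 (0.933–0.967). The *Mup* genes and *Serpina1e* are near-identical copies whose reads may be split between them, and their separate values are uncertain.

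Of 15 listed female-biased genes 4 were measured, and *Cyp2a4* and *Cyp2b9* passed the minimum of 200 UMIs only through the library labelled HKO, so that they had to be higher in it. No median over the 4 is therefore read. *Cyp2b9* stood at 1.81 and 70.7 CPM, a ratio of 39.1 (28.8–54.4). *Cyp2a4* had 348 UMIs in low-both nuclei labelled HKO and 0 in those labelled Flox, at least 186-fold higher by the floor of 3 UMIs. *Slco1a4*, which did not depend on the minimum, stood at 43.9 and 308 CPM. The *Cyp2* genes have close paralogs, and reads may be split among them. *Xist*, which female cells transcribe, was at 1.1 and 2.3 CPM, and the Y-linked *Ddx3y* at 140 and 179 CPM, in low-both nuclei.

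The disease-associated list had a median log2 ratio of 1.04, with 4 of 5 higher in the library labelled HKO and 3 at least 2-fold (2.08% of all genes). Among nuclei of 3000 to 8000 UMIs the median was 0.62, with 2 at least 2-fold. *Nrg1* (chr8:31814551-32884029), a ligand of ErbB receptors, stood at 14.2 CPM in low-both nuclei labelled Flox and 104 CPM in those labelled HKO, a ratio of 7.31 (6.49–8.25). The ratio was 3.34 (2.89–3.85) in zone 1 and 7.0 (4.58–11) in zone 3. *Klf6*, an injury-response transcription factor, stood at 41.8 and 106 CPM and *Anxa2* at 6.60 and 14.6 CPM. *Gdf15* stood at 123 and 103 CPM, lower in the library labelled HKO. Without the other-cell nuclei *Nrg1* stood at 14.2 and 99.2 CPM, *Klf6* at 40.7 and 104 CPM and *Anxa2* at 5.52 and 13.7 CPM.

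Of the 41 genes of the study's senescence list 12 were measured, and *Ccl2* and *Mmp12* passed the minimum only through the library labelled HKO. Of the other 10, 9 were higher and 3 at least 2-fold (2.08% of all genes). The study compiled that list itself. *Cdkn1a* (chr17:29090976-29100727) stood at 14.6 and 43.8 CPM, a ratio of 2.99 (2.62–3.42), against 4.25 (3.45–5.26) in zone 1 and 3.25 (2.36–4.51) in zone 3. After thinning, *Cdkn1a* was detected in 3.87% and 10.6% of low-both nuclei and in 4.09% (1.89–7.62) and 8.63% (4.54–14.6) of endothelial nuclei. The low-both shares lay within the endothelial intervals. Whether endothelial nuclei transcribe *Cdkn1a* themselves was not tested, so their share need not measure free RNA. *Mmp12*, a macrophage elastase, stood at 0.673 and 19.2 CPM, and without the other-cell nuclei at 0.297 and 3.25 CPM.

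Lipogenic genes were higher in low-both nuclei of the library labelled HKO, with 13 of 17 higher, 4 of them at least 2-fold (2.08% of all genes), and a median log2 ratio of 0.62. Among nuclei of 3000 to 8000 UMIs 13 of 17 were higher and 2 at least 2-fold, with a median of 0.38. *Acaca*, which makes malonyl-CoA, stood at 126 and 327 CPM, a ratio of 2.59 (2.48–2.72). *Fasn*, fatty acid synthase, stood at 35.6 and 87.1 CPM, a ratio of 2.44 (2.24–2.67), against 2.11 (1.86–2.40) in zone 1 and 3.46 (3.02–3.97) in zone 3. Fatty acid oxidation genes were lower for 23 of 25, none by 2-fold, with a median of −0.27. *Acox2*, a peroxisomal oxidase of branched chains, stood at 153 and 79.2 CPM, and *Hadhb*, of the mitochondrial trifunctional protein, at 159 and 194 CPM.

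Acute-phase genes were mostly lower in the library labelled HKO. Of 15 acute-phase genes 13 were lower and 6 at least 2-fold (1.97% of all genes), with a median log2 ratio of −0.66. *Saa1*, serum amyloid A, stood at 335 and 66.2 CPM, a ratio of 0.198 (0.185–0.211), against 0.108 (0.0999–0.116) in zone 1 and 0.377 (0.331–0.427) in zone 3. *Fgg*, a fibrinogen chain, stood at 1000 and 377.2 CPM. Of 36 plasma protein genes 28 were lower, with a median of −0.31.

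The zone lists had medians on opposite sides of 0 within the low-both nuclei. Of 23 pericentral genes outside the rule 15 were lower in the library labelled HKO, 5 at least 2-fold (1.97% of all genes). The median log2 ratio of the 23 was −0.49. *Lhpp* passed the UMI minimum only through the library labelled Flox and had to be lower. Without it 14 of 22 were lower, 4 at least 2-fold. Of 22 periportal genes 15 were higher, with a median of 0.31. *Cyp17a1* passed the UMI minimum only through the library labelled HKO, and without it 14 of 21 were higher. *Cyp2e1* stood at 1527 and 922 CPM, a ratio of 0.603 (0.592–0.615), *Cyp2c54* at 55.9 and 8.30 CPM and *Gstm1*, a glutathione transferase, at 42.7 and 87.5 CPM. *Cyp7a1* stood at 554 and 1081 CPM, a ratio of 1.95 (1.91–2.00). All 3 midlobular genes were lower, *Hamp* at 0.515 (0.495–0.536), *Igfbp2* at 0.730 (0.675–0.790) and *Cyp8b1* at 0.469 of the level in the library labelled Flox. The rule sums themselves were nearly equal, at 87.3 and 90.0 CPM for the pericentral and 356 and 359 CPM for the periportal genes.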

How the data were processed

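The authors deposited, for each of the 2 libraries, a matrix of UMI counts (32285 genes by barcodes, none under 500 UMIs). The submitters' processing notes name Cell Ranger 8.0.1, the reference was mm10 (GRCm38, with gene positions here from its GENCODE annotation), and intronic reads were excluded. From these counts, nuclei were classed by the rule in the report and UMIs were summed per class and library (CPM). Log2 ratios used CPM plus 1, for genes with at least 200 UMIs. There was 1 library per group, so no test was made. Intervals are 95% (Poisson for CPM, Clopper-Pearson for shares, conditional binomial for ratios), and the ratio step was tested on simulated data. Shares of nuclei with a UMI used thinning to 3000 UMIs. The paper took doublets out in its own analysis, with DoubletFinder and by hand. Whether they had been removed before deposit is not given in the sources used here. They were kept, except in an alternative with Scrublet (scanpy 1.11.5), which marked 701 and 920 barcodes. Python 3.11.15, numpy 2.4.6, scipy 1.17.1, pandas 2.3.3 and R 4.3.3 were used, with edgeR 4.0.16 and DESeq2 1.42.0 only for scaling factors in alternatives.

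Genes named are the 8 highest and 8 lowest of each zone comparison, the 10 highest and 10 lowest against both zones, the 12 highest and 12 lowest between libraries, the 10 with the highest Fano factor, the 2 highest and 2 lowest members of each list, *Themis*, *Cdkn1a*, the markers and the rule genes. A few of each are printed. Other list members named as examples were chosen after their values were seen. The members, lists and comparisons were chosen with earlier results of these data known. An alternative without other-cell nuclei and one limited to 3000 to 8000 UMIs were added after seeing the data. In the marker lists of other cells, *Xbp1*, *Dpp4*, *Themis* and *Sox9* were left out. Some single-gene results are not reported here.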

Additional observations from a re-analysis of the deposited data

Results flagged for a closer look

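Of 356 named or listed genes screened against each zone, 13 were on opposite sides of zone 1 in the libraries and 11 on opposite sides of zone 3, and 3 and 1 of these were at least 2-fold apart. Each is 1 library against 1 library, and the difference between them was not tested. *Mapt*, which encodes tau, stood at 2.23 CPM in low-both and 5.96 CPM in zone 1 nuclei labelled Flox but at 27.2 and 19.3 CPM in those labelled HKO, a difference of 1.58 between the log2 ratios. *Mup20* stood at 1348 and 2523 CPM labelled Flox but at 1281 and 971 CPM labelled HKO, a difference of 1.30. *Nrg1* stood at 14.2 and 19.1 CPM labelled Flox but at 104 and 63.6 CPM labelled HKO, a difference of 1.10. Against zone 3, *Mup11* stood at 629 and 536 CPM labelled Flox but at 7.42 and 14.6 CPM labelled HKO, a difference of −1.12.

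The share of low-both nuclei in the library labelled HKO over that in the library labelled Flox was above 1 under 8000 UMIs and 0.916 (0.825–1.01) from 8000 UMIs. That difference between depths was not tested.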

How the results depend on the processing

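No paired analysis was possible because each group holds 1 library. Of 84 recomputed shares, share ratios and counts of genes past 2-fold, 64 moved by less than their counting interval or, for counts, by less than 1.5 times, and 20 moved more. The low-both share in the libraries labelled Flox and HKO was 30.1% and 35.1% with a zone cut of 0.05%, 69.6% and 70.5% with a cut of 0.2% (ratio 1.01, 0.966–1.06), 49.5% and 56.1% from 5000 UMIs, 42.3% and 48.8% with zone sums thinned to 3000 UMIs, and 39.7% and 47.6% with *Malat1* out of the totals. Between 3000 and 8000 UMIs it was 36.6% in the library labelled Flox, with a ratio of 1.49. The share and its ratio thus depend on the cut and the depth range.

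Against zone 1 and zone 3, 203 and 225 genes were past 2-fold in both libraries, and 413 between the libraries. From 2000 UMIs the first counts were 339 and 353, and 97 genes in place of 4 were at least 2-fold above both zones. With a pseudocount of 10 CPM the counts were 69, 88 and 191, with 35 higher and 53 lower against zone 3 in place of 131 and 94. With at least 50 UMIs per gene 688 genes differed between the libraries (414 higher, 274 lower), and with at least 1 UMI 766 (478 higher, 288 lower). TMM and median-of-ratios scaling gave 199 and 198, 223 and 225, and 419 and 412, but above and below both zones in all 4 ratios were then 910 and 840, and 882 and 881 genes, in place of 1035 and 713.

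*Igha* over zone 1 turned to −0.076 from 5000 UMIs and to −0.33 without other-cell nuclei. Against both zones it turned to −0.85 from 5000 UMIs, to −0.54 with at least 2 hepatocyte markers and to −0.54 without other-cell nuclei. *Igkc* against both zones turned to −0.60 from 5000 UMIs and to −0.16 without other-cell nuclei. The interferon list between the libraries, with a median of 0.46, turned to −0.11 at 3000 to 8000 UMIs and to −0.03 with thinned zone sums. The causes were not tested. Of 1615 recomputed list medians 1601 moved little and 14 more.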

Other observations

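Further groups of genes were compared in low-both nuclei. Of 12 interferon and chemokine genes 8 were higher in the library labelled HKO and 4 at least 2-fold (2.08% of all genes), with a median log2 ratio of 0.46. Among nuclei of 3000 to 8000 UMIs 5 were higher and 7 lower, with a median of −0.11, so the list has no steady direction. *Ccl2* and *Ifit3* passed the UMI minimum only through the library labelled HKO. *Rsad2*, an antiviral enzyme, stood at 7.15 and 26.2 CPM in the libraries labelled Flox and HKO, and *Cxcl10*, a chemokine, at 11.1 and 26.3 CPM. Counts of *Rsad2* and *Cxcl10* were uneven from nucleus to nucleus, and both were among the 10 genes with the highest ratio of variance to mean in thinned low-both nuclei, behind *Igkc*, *Igha*, *Jchain* and *Malat1*. That ratio was 20.9 and 23.6 for *Rsad2*.

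Proliferation genes were higher for 16 of 20 in the library labelled HKO, 2 at least 2-fold (2.08% of all genes), with a median of 0.23. *Mki67* passed the UMI minimum only through that library, and without it 15 of 19 were higher. Among nuclei of 3000 to 8000 UMIs 12 were higher and 8 lower, with a median of 0.12. *Top2a*, a topoisomerase of dividing cells, stood at 5.21 and 13.0 CPM in low-both nuclei and without other-cell nuclei at 2.08 and 12.9 CPM. Bile acid genes were lower for 11 of 17 and 6 at least 2-fold (1.97% of all genes), with a median of −0.22. Their summed level was 9358 and 9587 CPM, a ratio of 1.02, with *Cyp7a1* higher. *Hsd3b5*, a male-biased steroid dehydrogenase, had 331 UMIs in the library labelled Flox and 1 UMI in the library labelled HKO, a ratio of 0.00485 (0.000122–0.0272).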
